A study of Mus musculus with 21 samples.

Results

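The comparison described here is the effect of the earlier diet on gene expression in the ventral hypothalamus (VH): mice that ate high-fat diet (HFD) before a diet switch over mice that ate regular chow (RC) before it, with both current diets weighted equally. It used all 21 RNA-seq libraries of the series, 10 with earlier HFD and 11 with earlier RC, and each of the 4 diet groups had its own mean in the model. Of 21654 genes in the count table, the 12768 that averaged 50 or more reads per library were tested, and no measured difference entered that choice.

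Male C57BL/6J mice, acquired at 12 to 14 weeks of age, were fed RC or HFD for several weeks, and some of them then received the opposite diet for one week. RC NoDS (no diet switch, n = 5 libraries) stayed on RC, RC → HFD (n = 6) went from RC to HFD, HFD → RC (n = 5) went from HFD to RC, and HFD NoDS (n = 5) stayed on HFD. Every mouse was kept awake for 3 hours with new objects before the tissue was taken in the light phase, and each library held polyA RNA of punches from 2 mice of the same group. RC NoDS and RC → HFD therefore shared an earlier diet of RC, HFD → RC and HFD NoDS an earlier diet of HFD. The earlier diet also set how heavy the mice were before the switch. After it, the paper reports, HFD → RC mice lost weight and RC → HFD mice gained it. Final weights were lowest in RC NoDS, highest in HFD NoDS and similar in the switched groups. Within each current diet, the groups compared therefore also differed in recent weight change and in final weight. Earlier diet, body weight history, recent weight change with its energy balance, and final weight cannot be told apart.

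The VH, as the study took it, holds the arcuate, ventromedial and paraventricular nuclei, whose neurons sense leptin, insulin and nutrients and set food intake and energy use. Neuropeptides such as agouti-related peptide, neuropeptide Y and the products of *pomc* and *cartpt* carry these signals, while astrocytes, microglia, oligodendrocytes and tanycytes surround the neurons. Long feeding with a fat-rich diet is known for gliosis in this region, in which astrocytes increase *gfap* and other reactive genes.

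In the lists of values below, libraries stand in the order of their numbers, which are 1, 2, 3, 5 and 6 for RC NoDS, 13 to 17 for HFD → RC, and 19, 20, 21, 23 and 24 for HFD NoDS. For the 6 libraries of RC → HFD (7 to 12), the lowest, the median and the highest value are given. Values are whole reads counted per gene, and the totals lay between 16380781 and 16390598 reads per library because the authors had re-sampled all libraries to 1 depth. Between replicates within a group, the variance was 6.89 to 42.0 times that of read sampling alone (chi-square over its degrees of freedom, 45 pairs), and no pair was identical. P-values therefore rest on the spread between libraries. Tissue markers of the VH were present at unlike levels: *nr5a1* and *fezf1*, transcription factors of the ventromedial nucleus, averaged 1239 ± 356 and 1003 ± 259 reads (SD, n = 11) with earlier RC and 1263 ± 489 and 995 ± 325 (n = 10) with earlier HFD. *Tbx3*, a factor of arcuate neurons, averaged 1134 ± 267 and 1117 ± 246 reads in the same order. *Sim1*, a transcription factor of the paraventricular nucleus, averaged 37.1 ± 17.6 and 46.2 ± 23.2 reads, too few to be tested. *Pmch*, a peptide gene of the lateral hypothalamus, which the punches were meant to leave out, averaged 1154 and 996 reads in the same order.

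Several libraries stood apart before any comparison was made. Among the 3116 genes with an average of 5 to 50 reads, the percentage without any read, a measure of how many different RNA molecules a library sampled, was 1.12%, 3.63%, 2.34%, 7.22% and 1.80% in RC NoDS. In RC → HFD it ran from 2.31% to 22.4% (median 12.1%, n = 6). It was 9.24%, 20.5%, 5.68%, 15.1% and 31.9% in HFD → RC, and 16.2%, 32.9%, 14.6%, 9.88% and 7.70% in HFD NoDS. Replicate 17 of HFD → RC and replicate 20 of HFD NoDS had the highest shares, and all 5 RC NoDS libraries were low. With earlier HFD the share averaged 16.38 ± 9.54% (n = 10) against 7.96 ± 7.86% (n = 11) with earlier RC. The mean of the differences on current RC (13.3 percentage points) and on current HFD (4.36) was 8.82 (exact permutation of the earlier diet within each current diet, two-sided, 116424 assignments, p = 0.0295, Benjamini-Hochberg adjusted over 4 library measures 0.059). Genes with at least 1 read numbered 16624 ± 599 with earlier HFD and 17352 ± 745 with earlier RC (exact permutation p = 0.0169, adjusted 0.059). The share of reads in the 10 most abundant genes (2.58 ± 0.156% v 2.48 ± 0.0875%, exact permutation p = 0.0821, adjusted 0.109) and the TMM scaling factor (0.997 ± 0.0107 v 1.00 ± 0.0124, exact permutation p = 0.253) differed by less. By group, the share of genes at 0 reads averaged 3.22% in RC NoDS, 11.9% in RC → HFD, 16.5% in HFD → RC and 16.3% in HFD NoDS. Library complexity thus differed with the earlier diet on average, mostly on current RC, and RC NoDS stood apart from the other groups. Its part in the results below was not tested beyond the fits that carried library complexity as a covariate.

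With earlier HFD, the VH held more mRNA of a neuropeptide gene and of single genes of reactive astrocytes and of myelin, averaged over both current diets. *Trh*, the precursor of thyrotropin-releasing hormone, rose by 0.97 ± 0.113 on the log2 scale (SE, 10 v 11 libraries), and *c4b*, a complement component that reactive astrocytes make, by 0.77 ± 0.113. *Gfap*, the intermediate filament of astrocytes, rose by 0.73 ± 0.151. The myelin proteins *mobp* and *mbp* rose by 0.78 ± 0.163 and 0.75 ± 0.166. With library complexity as a covariate the differences were 0.60 for *gfap*, 0.74 for *mobp* and 0.63 for *mbp*, no longer called, and 0.79 for *trh* and 0.81 for *c4b*, still called. In all, edgeR's quasi-likelihood test called 9 genes at a Benjamini-Hochberg adjusted p under 0.15, and each of the 9 was higher with earlier HFD.

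The 9 genes made up 0.0705% of the 12768 genes tested. No gene was called lower (0 genes, 0% of those tested), while at an unadjusted p under 0.05 edgeR listed 516 genes higher (4.04%) and 412 lower (3.23%). DESeq2 called 23 genes, of which 22 were higher, and limma-voom called 3, all higher. The median log2 fold change of all genes tested was 0.0031, and 6531 of them were higher with earlier HFD. At an adjusted p under 0.05, edgeR kept *trh* and *c4b* alone. No gene had all 10 earlier HFD libraries above or below all 11 earlier RC libraries (0 genes, 0%). Within each current diet, 1 gene (0.00783%) separated both pairs of groups in the same direction: *dusp3*, a dual-specificity phosphatase, which was chosen for mention after its values were seen and was not called (log2 fold change 0.12, edgeR adjusted p = 0.577). The share of all genes that separated within a single current diet is not given here. Such gaps are therefore mentioned below as description only.

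*Trh* had 543, 632, 464, 683 and 668 reads in RC NoDS and 999 to 2047 (median 1093.5) in RC → HFD (n = 6). With earlier HFD it had 1462, 1591, 1138, 1291 and 1673 reads in HFD → RC and 1741, 2613, 2258, 1863 and 1737 in HFD NoDS. All 5 HFD → RC libraries lay above all 5 RC NoDS libraries on the same current diet, and on current HFD replicate 12 of RC → HFD, at 2047 reads, overlapped HFD NoDS. The edgeR adjusted p for the earlier diet was 2.62e-05, and 2 of 10 libraries with earlier HFD exceeded every library with earlier RC. On current RC the difference was 1.28 ± 0.166 and was called (edgeR adjusted p = 0.000239). On current HFD it was 0.66 ± 0.153 and was not called (edgeR adjusted p = 0.312). *Trh* was also higher with current HFD (0.82 ± 0.113, edgeR adjusted p = 0.000444), and the earlier diet effect minus the current diet effect was 0.16 ± 0.154 (edgeR adjusted p = 1.00). RC NoDS, with neither exposure, therefore held the lowest *trh* on average and HFD NoDS, with both, the highest. The gene (ENSMUSG00000005892) lies on chromosome 6 from 92192055 to 92194644 of the NCBIM37 (mm9) genome, reverse strand, and overlaps no other annotated gene.

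*C4b* reads were 661, 730, 907, 889 and 1171 in RC NoDS and 796 to 964 (median 849.5) in RC → HFD (n = 6). They were 1230, 1593, 1116, 1369 and 1019 in HFD → RC and 1751, 1463, 1745, 2625 and 1100 in HFD NoDS. Of the libraries with earlier HFD, 7 of 10 exceeded every library with earlier RC, and RC NoDS replicate 6 reached into the range of HFD → RC. EdgeR gave an adjusted p of 0.00133. The effect was 0.56 ± 0.164 on current RC and 0.98 ± 0.156 on current HFD, where *c4b* was also called (edgeR adjusted p = 0.0103). *C4b* (ENSMUSG00000073418, chromosome 17 from 34865325 to 34880827, reverse strand) has a near-identical copy, *c4a*, so the split of reads between them is uncertain. *C4a* averaged 78.0 ± 10.8 reads with earlier RC and 58.4 ± 22.8 with earlier HFD.

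*Gfap* had 3341, 2891, 3903, 3645 and 4393 reads in RC NoDS and 2282 to 3600 (median 3285) in RC → HFD (n = 6). Its reads were 5357, 8518, 3402, 2987 and 4057 in HFD → RC and 6183, 8291, 4570, 8797 and 3807 in HFD NoDS. All HFD NoDS libraries were above all RC → HFD libraries, whereas replicates 15, 16 and 17 of HFD → RC lay within the range of RC NoDS. The edgeR adjusted p was 0.0891, with a log2 difference of 0.45 on current RC and 1.02 on current HFD. *Gfap* (ENSMUSG00000020932, chromosome 11 from 102748650 to 102762226, reverse strand) overlaps *gm17536* on the opposite strand. The kit kept the strand of the RNA, but whether counting used it is not given in the sources used here, so overlapping genes are uncertain.

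Of the 10 reactive astrocyte genes tested, all 10 were higher with earlier HFD, 2 were called and 4 had an unadjusted p under 0.05 (median log2 fold change 0.297, against 0.0031 for all genes tested). *Serpina3n*, a protease inhibitor secreted by reactive astrocytes and 1 of a cluster of related genes that can share reads, missed the threshold (0.43 ± 0.0977, edgeR adjusted p = 0.162). Its reads were 2740, 2696, 3326, 3859 and 3206 in RC NoDS and 3071 to 4824 (median 3950.5) in RC → HFD (n = 6). They were 2940, 4347, 2583, 4931 and 3790 in HFD → RC and 5817, 4510, 6582, 7239 and 5701 in HFD NoDS. The 4 highest libraries were all of HFD NoDS, whose replicate 20 lay below HFD → RC replicate 16 and the highest RC → HFD library, and the HFD → RC libraries spread beyond both ends of the range of RC NoDS. The list's summed reads per library averaged 15048 ± 3906 with earlier HFD and 10688 ± 1122 with earlier RC. Of general astrocyte genes, 11 of 16 were higher and 0 were called by edgeR (median 0.045, 2 at an unadjusted p under 0.05), among them *s100b*, a calcium-binding protein (0.35, edgeR adjusted p = 0.192), and *aldoc*, an astrocyte aldolase (0.12, adjusted p = 0.590). Whether there were more reactive cells or more RNA per cell cannot be told apart in bulk tissue, here or for the other cell types below.

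Myelin genes formed the largest group among the smallest p-values. *Mobp*, a structural protein of compact myelin, had 3991, 4785, 6525, 4537 and 5760 reads in RC NoDS and 4910 to 8030 (median 6128) in RC → HFD (n = 6). It had 15120, 17755, 10411, 5569 and 8480 reads in HFD → RC and 6658, 11421, 5991, 12389 and 5120 in HFD NoDS. Of the 10 libraries with earlier HFD, 6 exceeded all with earlier RC, while HFD → RC replicate 16 and HFD NoDS replicates 19, 21 and 24 did not. The edgeR adjusted p was 0.0891, with a log2 difference of 1.19 on current RC and 0.38 on current HFD (ENSMUSG00000032517, chromosome 9 from 120058860 to 120090602, forward strand).

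*Mbp*, the basic protein that holds myelin layers together and the most abundant of the list, had 17025, 19605, 25202, 18439 and 28344 reads in RC NoDS and 21187 to 32240 (median 23840) in RC → HFD (n = 6). It had 50853, 74724, 39514, 21031 and 32574 reads in HFD → RC and 28710, 52809, 25224, 48135 and 21537 in HFD NoDS. The same libraries were high and low as for *mobp*: replicates 13, 14 and 15 of HFD → RC and 20 and 23 of HFD NoDS stood highest, and replicates 16, 19, 21 and 24 lay within the range of earlier RC. Its edgeR adjusted p was 0.142, and the difference was 1.04 on current RC and 0.47 on current HFD. Its span (ENSMUSG00000041607, chromosome 18 from 82644538 to 82755029, forward strand) holds the pseudogene *rpl21-ps8* on the opposite strand.

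All 19 genes of the myelin and oligodendrocyte list were tested, and 18 were higher with earlier HFD. EdgeR called 2, and 15 had an unadjusted p under 0.05, all of them higher, with a median log2 fold change of 0.558 against 0.0031 for all genes tested. *Mag*, an adhesion molecule between myelin and axon, was 0.64 ± 0.158 higher without being called (edgeR adjusted p = 0.192). The gene below 0 was *nkx6-2*, a transcription factor of oligodendrocytes (−0.03, edgeR adjusted p = 0.975). Summed over the list, reads averaged 89479 ± 33212 per library with earlier HFD (n = 10) and 58971 ± 9848 with earlier RC (n = 11). The sums were 116642, 154891, 92770, 53646 and 74587 in HFD → RC and 67626, 111140, 61379, 108583 and 53525 in HFD NoDS, so the spread between libraries with earlier HFD was more than 3 times that with earlier RC. Of 7 genes of oligodendrocyte precursors, 5 were higher and 0 were called by edgeR (2 at an unadjusted p under 0.05). They included *gpr17*, a receptor of immature oligodendrocytes, at 0.24 ± 0.0599 (edgeR adjusted p = 0.192), and *enpp6*, a marker of newly formed oligodendrocytes, at 0.92 ± 0.276 (adjusted p = 0.446).

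**Figure D1:**
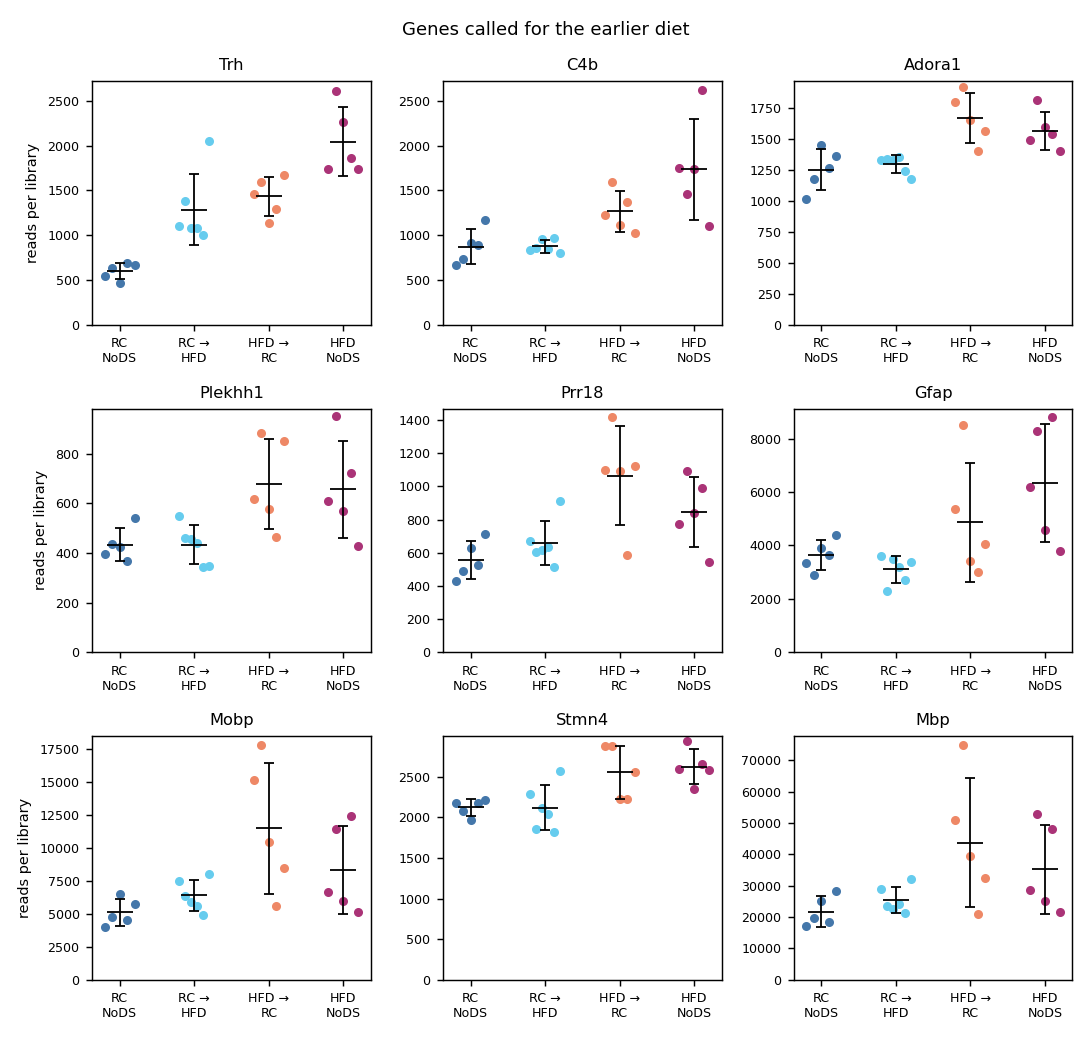
Reads per library (vertical axis) of the 9 genes called for the earlier diet, in the 4 diet groups, with 1 point per library and bars for the group mean ± SD (n = 5, 6, 5 and 5). *Trh* ran from 464 reads in RC NoDS to 2613 in HFD NoDS, while the myelin genes *mobp* and *mbp* spread widest in HFD → RC.

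Another 4 genes were called, and none of them with library complexity as a covariate. Over that fit and the other settings listed under the processing, their lowest differences were 0.33 for *adora1*, 0.24 for *stmn4*, 0.49 for *plekhh1* and 0.52 for *prr18*. *Adora1*, the adenosine A1 receptor, which damps neuronal firing and mediates sleep pressure, had 1018, 1176, 1450, 1266 and 1361 reads in RC NoDS and 1176 to 1359 (median 1332) in RC → HFD (n = 6). With earlier HFD its reads were 1799, 1925, 1655, 1401 and 1570 in HFD → RC and 1491, 1814, 1598, 1540 and 1401 in HFD NoDS. Groups did not overlap on current HFD, and 8 of 10 libraries with earlier HFD exceeded all 11 with earlier RC. The difference was 0.35 ± 0.0676 (edgeR adjusted p = 0.0628). *Adora1* (ENSMUSG00000042429, chromosome 1 from 136095800 to 136132008, reverse strand) overlaps *mybph* on the opposite strand.

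*Stmn4*, a stathmin that binds tubulin in neurons, had 2177, 2072, 1965, 2181 and 2207 reads in RC NoDS and 1824 to 2567 (median 2077.5) in RC → HFD (n = 6). It had 2874, 2872, 2229, 2227 and 2557 reads in HFD → RC and 2588, 2941, 2342, 2651 and 2582 in HFD NoDS. All HFD → RC libraries were above all RC NoDS libraries, and on current HFD replicate 12 of RC → HFD fell among the HFD NoDS libraries. The difference was 0.30 ± 0.0637 (edgeR adjusted p = 0.110), at 0.29 on current RC and 0.30 on current HFD. It lies on chromosome 14 from 66963133 to 66980517, forward strand (ENSMUSG00000022044).

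*Plekhh1*, which encodes a protein with pleckstrin homology domains, had 398, 436, 424, 366 and 543 reads in RC NoDS and 345 to 551 (median 449.5) in RC → HFD (n = 6). It had 616, 885, 579, 464 and 850 reads in HFD → RC and 610, 952, 569, 722 and 429 in HFD NoDS. Replicate 16 of HFD → RC and replicate 24 of HFD NoDS overlapped earlier RC, and the other 8 exceeded it. The difference was 0.63 ± 0.127 (edgeR adjusted p = 0.0767), and *pigh* overlaps the gene (ENSMUSG00000060716, chromosome 12 from 80130150 to 80182635, forward strand) on the opposite strand. *Prr18*, a proline-rich protein gene, had 429, 489, 631, 526 and 713 reads in RC NoDS and 515 to 910 (median 627) in RC → HFD (n = 6). Its reads were 1100, 1420, 1091, 588 and 1124 in HFD → RC and 771, 1091, 838, 988 and 543 in HFD NoDS. Replicate 16 of HFD → RC and replicates 19, 21 and 24 of HFD NoDS lay within the range of earlier RC, and the difference was 0.66 ± 0.132 (edgeR adjusted p = 0.0767), at 0.96 on current RC and 0.35 on current HFD. *Prr18* (ENSMUSG00000055945, chromosome 17 from 8533271 to 8536977, forward strand) lies inside the annotated span of *sft2d1* on the same strand, so their reads are uncertain.

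Genes with the next smallest p-values were not called. Besides *serpina3n*, they included *fads6*, a fatty acid desaturase family member (0.37 ± 0.0835, edgeR adjusted p = 0.162), *sept4*, a septin (0.49 ± 0.114, adjusted p = 0.174), *hcrt* and *anln*. *Anln*, an actin-binding protein found in myelin, was 0.85 ± 0.200 higher (edgeR adjusted p = 0.178). *Hcrt*, the precursor of the wake-promoting orexins made only in the lateral hypothalamus, had the largest difference of these, 1.57 ± 0.368 (edgeR adjusted p = 0.178). It had 75, 70, 94, 28 and 105 reads in RC NoDS and 58 to 355 (median 199.5) in RC → HFD (n = 6). With earlier HFD it had 437, 256, 215, 87 and 368 reads in HFD → RC and 93, 1051, 823, 187 and 234 in HFD NoDS. HFD NoDS replicates 20 and 21 were the highest and the groups overlapped. The study had left out punches by the ratio of average *agrp* and *pomc* to *hcrt*, so the range of *hcrt* was limited by selection. *Pmch*, the other peptide gene of the lateral hypothalamus, was at −0.10 ± 0.269 (edgeR adjusted p = 0.965) and turned to 0.16 without RC NoDS replicate 2, while *lhx9* averaged too few reads to be tested. Summed lateral hypothalamic reads averaged 1386 ± 624 with earlier HFD and 1319 ± 769 with earlier RC.

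Among genes of the arcuate feeding circuit, the following were not called for the earlier diet. *Npy* and *agrp*, the hunger peptides, were at −0.16 ± 0.109 and −0.03 ± 0.136 (edgeR adjusted p = 0.784 and 0.978), and *pomc*, the precursor of the satiety peptide α-MSH, at −0.01 ± 0.122 (adjusted p = 0.997). The sign of *agrp* turned without HFD → RC replicate 15 or 16 or HFD NoDS replicate 19 (0.05 at most). That of *pomc* turned in 12 of 21 fits (0.06 at most), without RC NoDS replicates 5 or 6, RC → HFD replicates 7, 10, 11 or 12, HFD → RC replicates 13, 16 or 17, or HFD NoDS replicates 19, 21 or 24. *Npy* reads were 5015, 4378, 4258, 5713 and 4745 in RC NoDS and 1390 to 2295 (median 1937) in RC → HFD (n = 6). They were 3058, 5214, 2669, 2832 and 4574 in HFD → RC and 1639, 1551, 2103, 2638 and 2006 in HFD NoDS. Libraries on current RC were the high ones, and within current RC the earlier diet groups overlapped. *Cartpt*, a peptide gene of satiety neurons, was at 0.31 ± 0.0898 (edgeR adjusted p = 0.430), with 0.15 on current RC and 0.46 on current HFD. The current diet called 6 genes (0.047% of those tested), namely *npy* at −1.10, *agrp* at −0.93, *trh* at 0.82, *cartpt* at 0.58, *serpina3n* at 0.50 and *rbm3*, a cold-inducible RNA-binding protein, at −0.37 (edgeR adjusted p from 1.03e-06 to 0.0651). The earlier diet effect minus the current diet effect equals HFD → RC over RC → HFD. The groups without a switch entered it only through the shared scaling and estimate of spread. The test of this difference called 1 gene (0.00783%), *npy*, with a difference of 0.94 (edgeR adjusted p = 0.0116). For *mobp* and *gfap* that difference was 0.84 and 0.65 and was not called (edgeR adjusted p = 0.639 and 0.808).

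Among the 25 neuropeptides tested, 15 were higher with earlier HFD and 10 lower, with 1 called (*trh*), 4 at an unadjusted p under 0.05 higher and 1 lower (median 0.054). *Pdyn*, the dynorphin precursor, was at −0.16 ± 0.0639 (edgeR adjusted p = 0.656). Receptors of feeding peptides were higher in 6 of 20, with 0 called by edgeR and 1 lower at an unadjusted p under 0.05, *ghsr*, the ghrelin receptor (−0.39 ± 0.1499, adjusted p = 0.618). In the thyroid hormone list *trh* was the 1 called gene of 14, and *dio2*, the deiodinase that activates thyroid hormone in tanycytes, was at 0.26 ± 0.145 (edgeR adjusted p = 0.742). *Sbno2*, a regulator induced through *stat3*, and *stat3* itself, which carries leptin and cytokine signals, were at 0.29 ± 0.0921 and 0.14 ± 0.0507 (edgeR adjusted p = 0.512 and 0.580). *Sbno2* was at 0.10 on current RC and 0.49 on current HFD, and *stat3* at 0.00 and 0.28. On current HFD neither gene's groups overlapped, which is description only because the share of all genes that did so is not given. The study's other genes were *atxn7l2*, a relative of ataxin-7, at 0.06 (edgeR adjusted p = 0.896) and *rbm3* at 0.05 (adjusted p = 0.918). *Tk1*, *cldn2* and *ikzf3* averaged under 50 reads and were not tested. *Tk1*, the thymidine kinase of dividing cells, had 0 reads in all 5 HFD → RC libraries and 5, 9, 0, 3 and 11 in RC NoDS, but 7, 21, 6, 1 and 13 in HFD NoDS against 10 to 25 (median 18.5) in RC → HFD (n = 6). *Cldn2*, a claudin, had 5.60 ± 6.02 reads with earlier HFD and 13.4 ± 5.07 with earlier RC, and *ikzf3*, a lymphocyte transcription factor, 7.20 ± 8.55 and 3.36 ± 3.38.

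Of 18 microglial genes tested, 16 were higher with earlier HFD and 9 had an unadjusted p under 0.05, all higher, though edgeR called 0, and the median log2 fold change was 0.192 (0.177 on current RC, with 3 at an unadjusted p under 0.05, and 0.191 on current HFD, with 6). *Csf1r*, the growth factor receptor on which microglia depend, had 1358, 1515, 1673, 1440 and 1611 reads in RC NoDS and 1398 to 1670 (median 1607.5) in RC → HFD (n = 6). It had 1647, 1919, 1760, 1509 and 1865 reads in HFD → RC and 1713, 1721, 1806, 2138 and 1620 in HFD NoDS. Of these, 7 of 10 libraries with earlier HFD exceeded all with earlier RC, by a difference of 0.20 ± 0.0592 (edgeR adjusted p = 0.420). The complement genes *c1qa* and *c1qc* were at 0.29 ± 0.0845 and 0.27 ± 0.0804 (edgeR adjusted p = 0.420 and 0.446). Summed microglial reads were 13177 ± 1328 with earlier HFD and 11757 ± 577 with earlier RC. HFD → RC replicate 14 and HFD NoDS replicate 23 were the highest, at 15423 and 15374. HFD → RC replicates 13, 15 and 16 (11818, 11949 and 11846) lay within the range of earlier RC, as did HFD NoDS replicates 19 and 24. Inflammatory genes of the NF-kB and toll-like receptor list were higher in 4 of 13 (median −0.03, 0 called by edgeR, 1 at an unadjusted p under 0.05, the kinase *ikbke* at −0.59 ± 0.261). Interferon-stimulated genes were higher in 14 of 21 (median 0.029, 0 called by edgeR, 1 at an unadjusted p under 0.05, the class I gene *h2-k1* at 0.24 ± 0.111).

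The effect of the earlier diet could be measured in mice now on RC and in mice now on HFD, groups that share no library. Both effects came from 1 fit of all 21 libraries, so they share the scaling and the estimate of spread. On current RC (HFD → RC over RC NoDS), edgeR called 36 genes (0.282%), 32 of them higher, with myelin, neurofilament and axonal genes among them. With the share of low genes at 0 reads as a covariate it called 1, and that share averaged 3.22% in RC NoDS and 16.5% in HFD → RC. On current HFD (HFD NoDS over RC → HFD) it called 2 genes (0.0157%), *c4b* at 0.98 and *col18a1*, a basement membrane collagen, at 0.78, both higher. The 36 became 1 without RC NoDS replicate 1, 2 or 5 or HFD → RC replicate 13 or 14, 2 without HFD → RC replicate 15, and 23 without RC → HFD replicate 7. They became 67 without RC NoDS replicate 6, 76 without RC → HFD replicate 12, 145 without HFD NoDS replicate 20 and 205 without HFD → RC replicate 16. The 2 on current HFD became 1 when any of RC NoDS replicate 3, RC → HFD replicates 7, 8 and 9, HFD → RC replicate 13 or HFD NoDS replicate 23 was dropped. They became 4 without HFD NoDS replicate 21, 5 without RC NoDS replicate 1, RC → HFD replicate 11 or HFD → RC replicate 15 or 16, and 31 without HFD NoDS replicate 19. At an unadjusted p under 0.05, 659 genes (5.16%) were higher and 375 lower on current RC, and 549 (4.3%) were higher and 407 lower on current HFD. Across the 12768 genes, which are not independent replicates, the 2 effects had the same sign for 6258 genes (49.0%), with a Spearman correlation of −0.042. Of the 101 genes with an unadjusted p under 0.05 in both, 31 went in the same direction (22 higher and 9 lower) and 70 in opposite directions. The 22 included *trh*, *c4b*, *adora1*, *stmn4*, *plekhh1*, *hcrt*, *csf1r* and *enpp6*.

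The test of the difference between the 2 effects, the interaction, called 4 genes (0.0313%). *Slc12a7*, a potassium chloride cotransporter, and *col18a1* were lower with earlier HFD on current RC (−0.50 and −0.30) and higher on current HFD (0.45 and 0.78), with differences of 0.94 ± 0.192 and 1.08 ± 0.220 (edgeR adjusted p = 0.145 for each). *Tppp*, a tubulin polymerization protein of oligodendrocytes, and *plcxd2*, a phospholipase domain protein, went the other way, at 0.35 and 0.39 on current RC and −0.16 and −0.27 on current HFD. Their differences were −0.51 ± 0.106 and −0.66 ± 0.137 (edgeR adjusted p = 0.145 for each). *Col18a1* had 424, 342, 366, 484 and 478 reads in RC NoDS and 267 to 366 (median 305.5) in RC → HFD (n = 6). It had 341, 448, 244, 376 and 260 reads in HFD → RC and 565, 675, 489, 549 and 444 in HFD NoDS. The HFD NoDS libraries stood above all RC → HFD libraries, while the groups on current RC overlapped. *Col18a1* overlaps *slc19a1*, *tppp* overlaps *gm6263* and *plcxd2* overlaps *gm15638*, each on the opposite strand. The number of genes called for the interaction was 0 when any of RC NoDS replicates 1, 5 and 6, RC → HFD replicates 7, 8, 11 and 12, HFD → RC replicates 13, 15 and 17 or HFD NoDS replicates 21, 23 and 24 was dropped, while edgeR had 1129 genes at an unadjusted p under 0.05 with all libraries. Leaving out RC → HFD replicate 9 gave 7, replicate 10 of the same group 20, HFD → RC replicate 16 gave 9, and there were 22 without RC NoDS replicate 3. Without HFD → RC replicate 14 it was 44, and without HFD NoDS replicates 19 and 20 it was 103 and 124. DESeq2 called 116 genes and limma-voom 15.

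**Figure D2:**
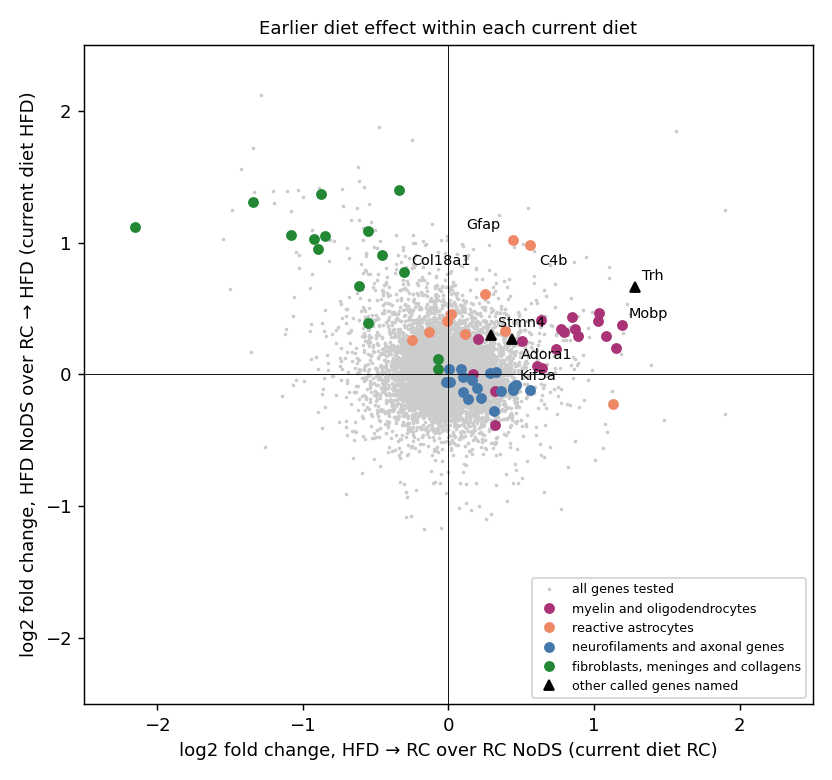
Log2 fold change for the earlier diet in mice now on RC (horizontal axis, HFD → RC over RC NoDS) and in mice now on HFD (vertical axis, HFD NoDS over RC → HFD) for the 12768 genes tested, with 4 gene lists in color. Axes end at ±2.5, beyond which 3 genes lie; myelin genes sit mostly at the upper right, and fibroblast and collagen genes at the upper left.

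The effect of the earlier diet on gene groups is given here for each current diet, without a test of groups. Over all 12768 genes, 513 were higher and 616 lower at an unadjusted p under 0.05 for the interaction. Myelin genes had a median of 0.772 on current RC (16 of 19 at an unadjusted p under 0.05, all higher, 6 called) and 0.288 on current HFD (0 called by edgeR, 1 lower at an unadjusted p under 0.05). For the interaction, 6 of the 19 had an unadjusted p under 0.05, all with the larger value on current RC, and none was called. Reactive astrocyte genes had medians of 0.184 and 0.366 in the same order, with 2 higher and 1 lower at an unadjusted p under 0.05 for the interaction. On current RC 7 of the 10 were higher and 3 lower (0 called by edgeR, 2 higher and 1 lower at an unadjusted p under 0.05). On current HFD 9 were higher and 1 lower (1 called, 6 higher at an unadjusted p under 0.05). General astrocyte genes were higher in 13 of 16 on current RC (median 0.12, 1 called, 4 higher at an unadjusted p under 0.05) and in 6 of 16 on current HFD (median −0.039, 0 called by edgeR, 2 lower at an unadjusted p under 0.05). For the interaction, 8 of these 16 had an unadjusted p under 0.05, all lower. Neurofilament and axonal genes were higher on current RC in 17 of 18 (median 0.211, 4 called), and on current HFD in 4 of 18 (median −0.089, 0 called by edgeR, 4 lower at an unadjusted p under 0.05). Averaged over both current diets their median was 0.052, with 14 of 18 higher, 0 called by edgeR and 4 at an unadjusted p under 0.05. *Kif5a*, the neuronal kinesin heavy chain, was at 0.44 on current RC, where it was called, and −0.10 on current HFD, and its earlier diet effect was 0.17 ± 0.0613 (edgeR adjusted p = 0.577, interaction adjusted p = 0.176). *Nefm*, the medium neurofilament, was at 0.56 and −0.12, and *tubb4*, a beta tubulin, at 0.33 and 0.02.

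Fibroblast, meningeal and collagen genes cancelled in the average. All 15 tested were lower with earlier HFD on current RC (median −0.612, 0 called by edgeR, 4 at an unadjusted p under 0.05), and all 15 were higher on current HFD (median 1.02, 1 called, 9 at an unadjusted p under 0.05). For the interaction 13 of the 15 had an unadjusted p under 0.05. Over both current diets 10 of 15 were higher, 0 were called by edgeR and 1 had an unadjusted p under 0.05 (median 0.030). *Col3a1*, a fibrillar collagen, had 50, 158, 124, 95 and 219 reads in RC NoDS and 51 to 104 (median 65) in RC → HFD (n = 6). It had 107, 116, 40, 26 and 214 reads in HFD → RC and 71, 397, 151, 186 and 150 in HFD NoDS. These ranges overlapped on both current diets, and HFD NoDS replicate 20 was the highest. Summed reads of the list averaged 10279 ± 2986 in RC NoDS, 6889 ± 1255 in RC → HFD, 7111 ± 2441 in HFD → RC and 10646 ± 3639 in HFD NoDS (SD, n = 5, 6, 5 and 5). The groups without a switch were thus the higher ones. Tanycyte and ependymal genes were higher in 13 of 14 over both current diets (median 0.080, 0 called by edgeR and 0 at an unadjusted p under 0.05). Their medians were −0.176 on current RC and 0.375 on current HFD, with 7 higher and 1 lower at an unadjusted p under 0.05 for the interaction. Among them *crym*, a thyroid hormone binding protein of tanycytes, was at −0.29 and 0.64.

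**Figure D3:**
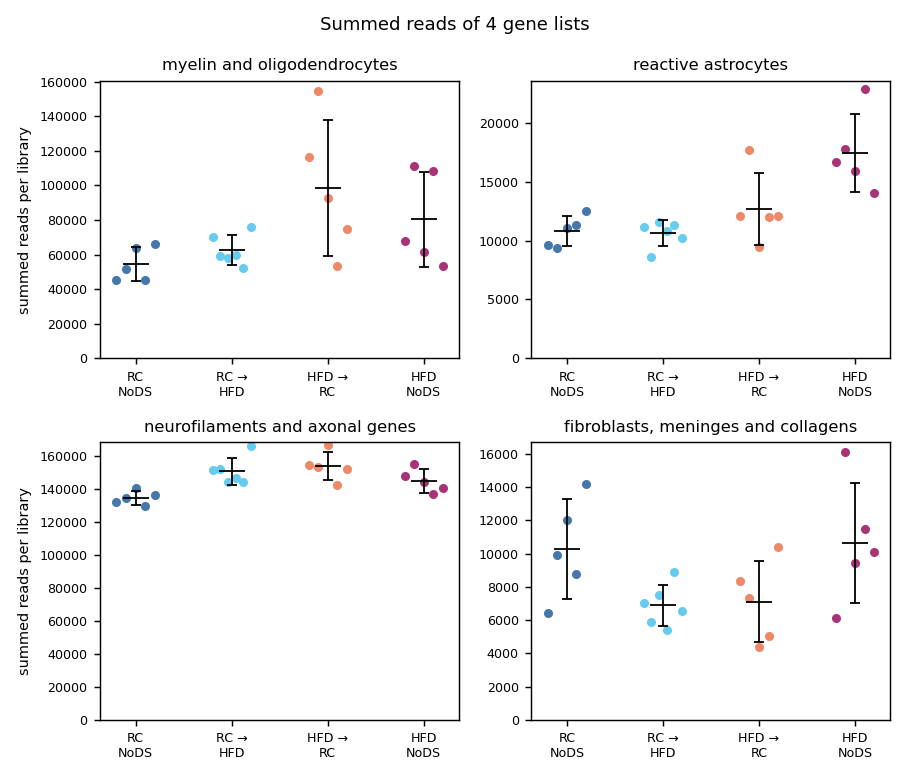
Reads summed over 4 gene lists in each library (vertical axis), by diet group, with 1 point per library and bars for the group mean ± SD (n = 5, 6, 5 and 5). Myelin sums spread from 53525 to 154891 with earlier HFD, reactive astrocyte sums were highest in HFD NoDS, and collagen sums were higher in the groups without a switch.

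For the earlier diet, edgeR called no gene in the lists for tissue that a punch can carry along. The fit put 0 of 6 pituitary genes higher and 6 lower with earlier HFD (median −0.497, 0 called by edgeR, 1 at an unadjusted p under 0.05), with group means near 0 for some of them. *Gh*, the growth hormone gene, had 2003 reads in HFD → RC replicate 13, 480 in RC → HFD replicate 12 and 184 in RC NoDS replicate 6, and 37 or fewer in every other library. Its mean was 201 with earlier HFD and 64.5 with earlier RC, so its fitted direction is not that of the means. Blood cell genes were higher in 5 of 5 (median 0.186, 0 called by edgeR and 0 at an unadjusted p under 0.05), with summed reads of 2887 ± 1748 and 2713 ± 1230. On current RC 4 of the 5 were lower (median −0.240) and on current HFD all 5 were higher (median 0.630). Choroid plexus genes were higher in 2 of the 4 tested (0 called by edgeR, 1 at an unadjusted p under 0.05), with *clic6*, a chloride channel gene and the most abundant of the list, at −0.18 ± 0.0583 (edgeR adjusted p = 0.530), and their sums were 1602 ± 273 and 1675 ± 242. The choroid plexus markers *ttr* and *cldn2* averaged under 50 reads. Genes of the thalamus were higher in 2 of 8 (median −0.066), with *tcf7l2*, a transcription factor of thalamic neurons, at −0.18 ± 0.133, and genes of cortex and hippocampus in 3 of 6 (median 0.001). EdgeR called 0 genes of either list, and 0 had an unadjusted p under 0.05. Hypothalamic transcription factors were higher in 6 of 14 (median −0.012, 0 called by edgeR, 1 at an unadjusted p under 0.05, *lhx1* at 0.50 ± 0.187). *Isl1*, a factor of arcuate neurons, was called on current RC (−0.55), where *lhx1* was called too (1.12). Endothelial and mural genes were higher in 13 of 20 (median 0.069, 0 called by edgeR, 1 at an unadjusted p under 0.05, the receptor *kdr* at 0.27 ± 0.127). The part that tissue carried along had in the results was not tested beyond the fit with summed *hcrt* and *pmch* reads, in which 10 genes were called.

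Averaged over both current diets, the medians of metabolic and stress gene lists lay close to the median of all genes, while single members lay further away. EdgeR called 0 genes for the earlier diet in each of the lists that follow. Brain lipoprotein genes were higher in 12 of 16 (median 0.053, 4 higher and 1 lower at an unadjusted p under 0.05), with *clu*, the lipoprotein and chaperone clusterin, at 0.15 ± 0.041 (edgeR adjusted p = 0.335) and *apod*, apolipoprotein D, at 0.53 ± 0.182 (adjusted p = 0.558). Cholesterol synthesis genes were higher in 7 of 22 (median −0.048, 2 higher and 1 lower at an unadjusted p under 0.05), with *lss*, lanosterol synthase, at 0.17 ± 0.0696. Fatty acid synthesis genes were higher in 6 of 13 (median −0.022, 0 at an unadjusted p under 0.05). Fatty acid oxidation genes were higher in 13 of 18 (median 0.051, 1 at an unadjusted p under 0.05). Glycolysis and citric acid cycle genes were higher in 25 of 31 (median 0.034, 1 at an unadjusted p under 0.05), and insulin and IGF signalling genes in 12 of 22 (median 0.028, 1 at an unadjusted p under 0.05). Leptin receptor and JAK-STAT genes were higher in 15 of 22 (median 0.020, 3 higher and 1 lower at an unadjusted p under 0.05), and prohormone processing genes in 5 of 13 (median −0.034, 0 at an unadjusted p under 0.05). The median of the JAK-STAT list was −0.023 on current RC and 0.099 on current HFD, and that of the insulin and IGF list −0.088 and 0.050. At an unadjusted p under 0.05 for the interaction, 6 genes of the JAK-STAT list were higher and 1 lower, and 4 and 1 of the insulin and IGF list.

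Subunits of oxidative phosphorylation were higher in 40 of 76 (median 0.005, 4 higher and 2 lower at an unadjusted p under 0.05), with *cox4i1*, a subunit of complex IV, at 0.14 ± 0.0479. Cytosolic ribosomal proteins were higher in 57 of 81 (median 0.022, 3 higher and 1 lower), led by *rpl38* at 0.20 ± 0.0649. On current RC 63 of the 81 were lower (median −0.055) and on current HFD 76 were higher (median 0.092), with 11 higher at an unadjusted p under 0.05 for the interaction. Mitochondrial ribosomal proteins were higher in 29 of 74 (median −0.022, 1 lower, *mrps18c* at −0.35 ± 0.132). Glutamate and GABA receptor subunits were higher in 13 of 39 (median −0.058), and the 4 with an unadjusted p under 0.05 were all lower, among them the GABA-A subunit *gabra3* at −0.20 ± 0.0801. On current RC 20 of the 39 were higher (median 0.004, 5 higher and 1 lower at an unadjusted p under 0.05). On current HFD 7 were higher and 32 lower (median −0.142, 1 higher and 7 lower at an unadjusted p under 0.05). Immediate early genes were higher in 12 of 17 (median 0.104, 1 at an unadjusted p under 0.05, *nr4a3*, an orphan nuclear receptor, at 0.33 ± 0.135). Clock genes were higher in 7 of 16 (median −0.014, 1 lower, *arntl*, the clock activator BMAL1, at −0.27 ± 0.0992). Glucocorticoid targets were higher in 10 of 17 (median 0.023, 2 at an unadjusted p under 0.05), with the kinase *sgk1* at 0.38 ± 0.144. Heat shock chaperones were higher in 11 of 18 (median 0.021, 3 at an unadjusted p under 0.05), with *dnajb1* at 0.22 ± 0.0758 and *hspa1b* at 0.38 ± 0.138. Endoplasmic reticulum stress genes were higher in 12 of 22 (median 0.006, 2 at an unadjusted p under 0.05), with the transcription factor *atf3* at 0.76 ± 0.287. Both cold-inducible genes were higher (median 0.042), as were 5 of 8 proliferation genes (median 0.022), with 0 at an unadjusted p under 0.05 in either list.

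How firmly the 9 calls held differed between genes. *Trh* and *c4b* stayed called whichever single library was dropped (21 of 21 fits) and in all 11 other settings that were run. *Adora1* was called in 18 of 21, and lost without RC NoDS replicate 1 or 2 or HFD → RC replicate 14. *Plekhh1* was called in 12 of 21, *prr18* in 11, *gfap* and *mobp* in 10, *stmn4* in 9 and *mbp* in 8. Of the 11 other settings, 10 called *adora1*, 8 *plekhh1* and *stmn4*, 7 *gfap*, 6 *prr18* and *mobp*, and 4 *mbp*. All 6 were lost without RC NoDS replicates 1, 2 or 5, RC → HFD replicates 9, 10 or 11, HFD → RC replicate 14, or HFD NoDS replicates 20 or 23. *Prr18*, *gfap*, *mobp*, *stmn4* and *mbp* were also lost without RC → HFD replicate 8. Of these, all but *prr18* were lost when HFD → RC replicate 13 was left out, and *stmn4* also without HFD NoDS replicate 19 and *mbp* without RC → HFD replicate 7 or HFD → RC replicate 15.

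The number of called genes depended on single libraries. It was 2 without RC NoDS replicate 1 or 2 or HFD → RC replicate 14, 3 without RC NoDS replicate 5 or RC → HFD replicate 9, 10 or 11, and 4 without RC → HFD replicate 8 or HFD NoDS replicate 20 or 23. Dropping HFD → RC replicate 17 gave 14, dropping RC → HFD replicate 12 gave 18, dropping HFD NoDS replicate 21 gave 19 and dropping RC NoDS replicate 3 gave 20. Without RC NoDS replicate 6 or HFD NoDS replicate 24 it was 31 and 32, and without HFD → RC replicate 16, the HFD → RC library low in myelin genes, it was 70. With the share of low genes at 0 reads as a covariate 2 genes were called, *trh* at 0.79 and *c4b* at 0.81, while *mobp* was at 0.74 (edgeR adjusted p = 0.846), *mbp* at 0.63 and *gfap* at 0.60 (adjusted p = 1.00 for both). Without the 2 libraries with the highest share at 0, 4 genes were called.

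RefSeq promoters of GRCm38.p6, from 250 bases before to 50 after the start, were looked up for the 15 genes with the smallest p-values, and 10 genes matched (12 promoters). Genes without an entry in the table used included *c4b*, *stmn4*, *mbp* and *sept4*. Both strands were searched for 4 motifs, each chosen with the expression results known: ACAAT, the core bound by SOX factors such as SOX10 of oligodendrocytes, TTCNNNGAA, the spacing bound by STAT factors, TGACGTCA, the cyclic AMP response element, and TGACCTCA, a variant of that element. The last was added only after the *trh* promoter had been read and seen to hold it, and after TGACGTCA had been found in 0 of the 10 genes, so its match in *trh* is no finding. TGACGTCA occurs in 1.79% and TGACCTCA in 2.17% of all 32851 promoters of this length, and of the 9 other genes 3 hold TGACCTCA (*plekhh1*, *gfap* and *fads6*). ACAAT occurs in 31.0% of all promoters and in 2 of the 10 genes (*adora1* and *prr18*), and TTCNNNGAA in 8.30% and in 1 (*gfap*). A match is a description of the letters, not a binding site. The promoters of *trh* (chr6:92244601-92244900, reverse strand), *gfap* (chr11:102897151-102897450, reverse strand) and *prr18* (chr17:8340156-8340455, forward strand, the first of its 2) are shown as examples of called genes with a match, which stands in capitals. *Adora1* and *plekhh1* also hold a match and are not shown.
trh: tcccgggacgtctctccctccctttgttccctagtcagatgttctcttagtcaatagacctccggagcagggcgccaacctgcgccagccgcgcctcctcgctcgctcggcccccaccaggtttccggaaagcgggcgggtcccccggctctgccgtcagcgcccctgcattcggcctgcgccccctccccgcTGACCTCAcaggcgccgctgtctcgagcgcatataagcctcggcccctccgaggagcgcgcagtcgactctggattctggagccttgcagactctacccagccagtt
gfap: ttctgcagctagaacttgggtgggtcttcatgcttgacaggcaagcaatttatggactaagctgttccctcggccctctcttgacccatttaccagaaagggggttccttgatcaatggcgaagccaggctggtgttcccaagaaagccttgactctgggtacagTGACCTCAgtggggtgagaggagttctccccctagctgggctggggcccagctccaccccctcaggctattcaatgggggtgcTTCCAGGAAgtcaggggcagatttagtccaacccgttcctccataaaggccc
prr18: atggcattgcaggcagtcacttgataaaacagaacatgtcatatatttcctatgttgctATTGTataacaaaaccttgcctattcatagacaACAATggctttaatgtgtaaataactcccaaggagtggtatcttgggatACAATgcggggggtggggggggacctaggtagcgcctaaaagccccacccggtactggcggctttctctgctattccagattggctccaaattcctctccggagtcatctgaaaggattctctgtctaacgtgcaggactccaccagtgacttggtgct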

How the data were processed

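Reads had been aligned with STAR 2.5.1b to mm9 and handled with Picard 2.7.1, as the submitters' processing notes list. The authors removed ribosomal and mitochondrial reads, re-sampled every library to 1 depth and deposited whole-number read counts per Ensembl gene, which were used as deposited. Genes averaging 50 or more reads (99.58% of the reads) were scaled by TMM and fitted with edgeR 4.0.16 (R 4.3.3, quasi-likelihood F-test) with 1 mean per group. All genes tested entered the adjustment of p-values (Benjamini-Hochberg, threshold 0.15). The fit was also run on simulated data, and the outcome is not given here. Library measures were compared with exact permutation tests, and promoters searched, in Python 3.11.15 (scipy 1.17.1, numpy 2.4.6, pandas 2.3.3, matplotlib 3.10.9).

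Alternatives were DESeq2 1.42.0, limma-voom (limma 3.58.1), no TMM, a minimum average of 5 reads or none, robust dispersion, an additive model, the share of low genes at 0 reads as a covariate, reads summed by symbol, and each library left out. After seeing the data, a fit without the 2 libraries with the most genes at 0 reads and a fit with log2 summed *hcrt* and *pmch* reads as a covariate were added. Genes named are those called for the earlier diet, filled up to 15 by p, the 14 genes the study names for its RNA-seq, up to 4 per gene list by p, and those called for the interaction. Of the genes the lists allowed, those printed were picked after their values were seen, and *dusp3*, *nkx6-2* and the tissue markers fall outside that rule. The members, the gene lists and the motifs were chosen with earlier results of these data known. Gene lists are described by counts and medians and were not tested as sets.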

Additional observations from a re-analysis of the deposited data

Results flagged for a closer look

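In 4 of 132 groups of libraries examined (29 genes and 4 library measures), 1 library lay far from the rest of its group, and chance alone sets apart about 1 in 20 groups. *Trh* had 2047 reads in RC → HFD replicate 12. *Anln* had 529 reads in HFD NoDS replicate 23. *Cldn2* had 22 reads in RC NoDS replicate 1. *Plcxd2* had 2421 reads in RC → HFD replicate 8.

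The earlier diet effect differed between the current diets by the interaction test for 4 genes (edgeR adjusted p = 0.145 for each). The log2 difference, current HFD minus current RC, was 0.945 for *slc12a7*, 1.08 for *col18a1*, −0.659 for *plcxd2* and −0.512 for *tppp*. No cause was tested.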

How the results depend on the processing

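Numbers of called genes moved by more than 1.5 times under many settings, and for these the cause was not tested. For the earlier diet (9 genes), DESeq2 called 23, limma-voom 3, no read filter 35, robust dispersion 5 and the share at 0 reads as covariate 2. For the earlier diet on current RC (36), DESeq2 called 147, limma-voom 7, scaling without TMM 10 and the covariate 1. On current HFD (2), DESeq2 called 32, a minimum of 5 reads 1, no filter 5 and the covariate 1. For the interaction (4), DESeq2 called 116, limma-voom 15, no TMM 2, the minimum of 5 reads 0 and the covariate 33, while 1129 genes had an unadjusted p under 0.05 in edgeR. For the current diet (6), DESeq2 called 12. For the earlier minus the current diet effect (1), DESeq2 called 5, the minimum of 5 reads 2, no filter 3 and robust dispersion 0, with 683 genes at an unadjusted p under 0.05.

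The following were chosen after seeing the data. Without the 2 libraries with the most genes at 0 reads, the numbers were 4 for the earlier diet, 137 on current RC, 1 on current HFD, 191 for the interaction and 2 for the earlier minus the current diet effect. With summed *hcrt* and *pmch* reads as covariate, they were 5 on current HFD, 0 for the interaction and 36 for the current diet.

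With each library left out in turn, the numbers ran from 2 to 70 for the earlier diet, 1 to 205 on current RC and 1 to 31 on current HFD. They ran from 0 to 124 for the interaction, 4 to 10 for the current diet and 1 to 41 for the earlier minus the current diet effect. Without HFD → RC replicate 16, 205 genes were called on current RC, and 1 without RC NoDS replicate 1, 2 or 5 or HFD → RC replicate 13 or 14. On current HFD 31 were called without HFD NoDS replicate 19. For the interaction 124 and 103 were called without HFD NoDS replicates 20 and 19.

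Signs turned for some genes that were not called, among them *col3a1* and *col1a2*, at 0.53 and 0.22 with all libraries. The log2 fold change of *slc12a7* was 0.0016 in the additive model, and with the share at 0 reads as covariate that of *col3a1* was −0.0411 and that of *pmch* 0.21. *Col1a2*, another fibrillar collagen, was at −0.0121 with that covariate. Without the 2 libraries, *col1a2* was at −0.0361 and *pomc* at 0.0111, and *pomc* was at 0.0824 with *hcrt* and *pmch* as covariate. Leaving out 1 library gave −0.22 to 0.16 for *pmch*, −0.0679 to 0.0095 for *slc12a7*, −0.126 to 0.0453 for *agrp* and −0.0785 to 0.0582 for *pomc*.

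All 9 called genes kept their sign in every fit run, which says little because they were chosen from these same libraries. No paired analysis was possible because the groups share no replicate number. With 5 or 6 libraries per group of 2 pooled mice, a gene that was not called is not shown to be unchanged. Reads are not independent molecules, and library complexity differed with the earlier diet on average, mostly on current RC.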
